A study of Mus musculus with 10 samples.

Results

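The Notch receptors, ligands and targets described here are 10 genes, namely the receptor genes Notch1, Notch2, Notch3 and Notch4, the ligand genes Jag1, Jag2, Dll1 and Dll4, and the target genes Hes1 and Hey1. They were chosen by gene name from a table of 30719 genes, and each name matched 1 row. RNA sequencing was done on whole testes taken at postnatal day 10 from FXR-/- mice, which lack the bile acid receptor FXR encoded by Nr1h4, and from wild-type (WT) mice, all labelled as a mix of 129sv and C57Bl strains. There were 5 libraries from individual mice in each genotype, all sequenced on 1 flowcell, and the comparison asked which transcripts differ without the receptor. Libraries are called by the number in their labels, which are 8 to 12 for FXR-/- and 3, 4, 5, 6 and 9 for WT. The labels give neither the part of Nr1h4 that was removed nor a cell type to which the loss was confined.

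Notch signalling passes between touching cells. A ligand of the Jagged or Delta-like family on one cell pulls on a Notch receptor on its neighbour, proteases then cut the receptor, and the freed intracellular part joins the DNA-binding protein RBPJ and Mastermind proteins to switch on genes such as Hes1 and Hey1, which encode transcriptional repressors. In the mouse testis, Notch signalling from germ cells to Sertoli cells is known to limit Gdnf and Cyp26b1 through HES1 and HEY1, while NOTCH3 is known from vascular smooth muscle and pericytes and NOTCH4 and DLL4 from endothelium.

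Of the 10 genes, 8 had a promoter window in RefSeq on GRCm38.p6, taken from 250 bases before to 50 bases after an annotated start. The target genes Hes1 and Hey1 had no matched window, so their promoters were not searched for any motif. Notch2 is shown because it was the member that passed the test. The Dll1 window is shown because it held the only motif match among the 9 member windows. Another Dll1 window, at chr17:15376883-15377182 and nearer the 5′ end of the gene, held no match and is not shown. Capitals mark AGGTCA, the core hexamer read by many nuclear receptors. Both windows shown read 5′ to 3′ on the strand of the gene. They are Notch2 on the plus strand at chr3:98013288-98013587 and Dll1 on the minus strand at chr17:15375774-15376073.
Notch2: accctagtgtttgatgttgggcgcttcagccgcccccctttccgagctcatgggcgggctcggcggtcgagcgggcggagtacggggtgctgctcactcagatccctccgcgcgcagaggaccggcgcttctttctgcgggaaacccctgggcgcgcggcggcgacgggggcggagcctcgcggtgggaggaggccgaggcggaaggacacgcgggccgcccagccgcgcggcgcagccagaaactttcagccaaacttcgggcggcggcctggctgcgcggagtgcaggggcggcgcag
Dll1: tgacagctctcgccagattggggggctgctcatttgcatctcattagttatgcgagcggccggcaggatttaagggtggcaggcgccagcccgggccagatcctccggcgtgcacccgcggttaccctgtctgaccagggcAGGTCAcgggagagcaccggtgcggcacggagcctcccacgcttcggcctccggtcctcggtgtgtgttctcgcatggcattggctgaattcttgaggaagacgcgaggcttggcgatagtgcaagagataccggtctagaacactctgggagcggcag
The motifs were searched on both strands. AGGTCA occurred in 1 of 9 member windows and in 16.3% of all 32851 windows of 300 bases. The RBPJ core TGGGAA, which overlaps none of the others, occurred in 0 of 9 member windows and in 25.6% of all windows. The inverted repeat bound by FXR, AGGTCANTGACCT, which contains the hexamer, occurred in 0 of 9 member windows and in 0.00913% of all windows.

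Libraries held 33037427 to 39655170 counts in FXR-/- and 32330029 to 35006180 in WT. Nr1h4 was read at 8 to 13 counts in FXR-/- libraries and at 13 to 26 counts in WT libraries, and it fell (log2 fold change -0.84, SE 0.234, edgeR adjusted p = 0.0347). With the removed part unknown, these few counts are a weak check of the labels. Markers of both main testis compartments were present, with 0 of 10 Sertoli markers and 0 of 10 germ cell markers unread. Summed Sertoli markers ranged from 2586 to 3882 CPM (counts scaled to a common effective library size) in FXR-/- and from 4109 to 5139 CPM in WT, and 7 of the 10 markers fell. The sum is weighted to Clu, which averaged 1613 of 3338 CPM in FXR-/- and 2446 of 4702 CPM in WT. Clu was lowest in FXR-/- library 8, at 1091 CPM. All 10 markers had fitted changes below 0. Summed germ cell markers ranged from 1706 to 2306 CPM in FXR-/- and from 1287 to 2073 CPM in WT, and 1 of 10 rose. Of 7 adipocyte markers, 6 rose, with sums of 68.5 to 893.8 CPM in FXR-/- and 21.1 to 122.6 CPM in WT. Of 8 duct epithelium markers, 7 rose, with sums of 124.9 to 181.5 CPM in FXR-/- and 76.5 to 97.6 CPM in WT. Leydig markers (1 of 7 fell) and macrophage markers (0 of 8 passed) overlapped in their sums. By the same test 13.9% of all tested genes passed, 6.17% as higher and 7.71% as lower. The shares of germ cell markers (10%) and Leydig markers (14.3%) that passed were near this. FXR-/- library 8 had the lowest Sertoli sum and WT library 3 the lowest germ cell sum. In bulk tissue, fewer cells of a type and less RNA per cell cannot be told apart.

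Among these 10 genes, Notch2 fell and none rose. The change was small, at 1.21-fold, and the other 9 genes had fitted changes between -0.21 and 0.31 on the log2 scale (FXR-/- over WT) that did not pass the test. A gene was called changed at an adjusted p under 0.05 in edgeR's quasi-likelihood test over 18559 genes. With 1 of 10 members called, the share was near that among all tested genes, of which 13.9% were called, 6.17% as higher and 7.71% as lower. At an unadjusted edgeR p under 0.05, 3 of the 10 passed (Notch2, Notch3 and Hey1), as did 30% of all tested genes. The median fitted log2 fold change of the 10 was 0.05, against 0.01 for all tested genes. All 10 had enough counts to be tested. Genes on the opposite strand overlap Notch1, Notch3, Notch4, Dll4 and Dll1, each read at under 1 CPM, from 0.00545 CPM for the one at Notch4 to 0.933 CPM for 0610009E02Rik at Notch1. The overlap weighs most on Dll1, which averaged 2.47 CPM in FXR-/- and 2.53 CPM in WT against 0.286 CPM of A930024N18Rik. Of all calls, 44.5% were higher in FXR-/- testes with the scaling used here and 61.5% with library totals alone.

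**Figure D1:**
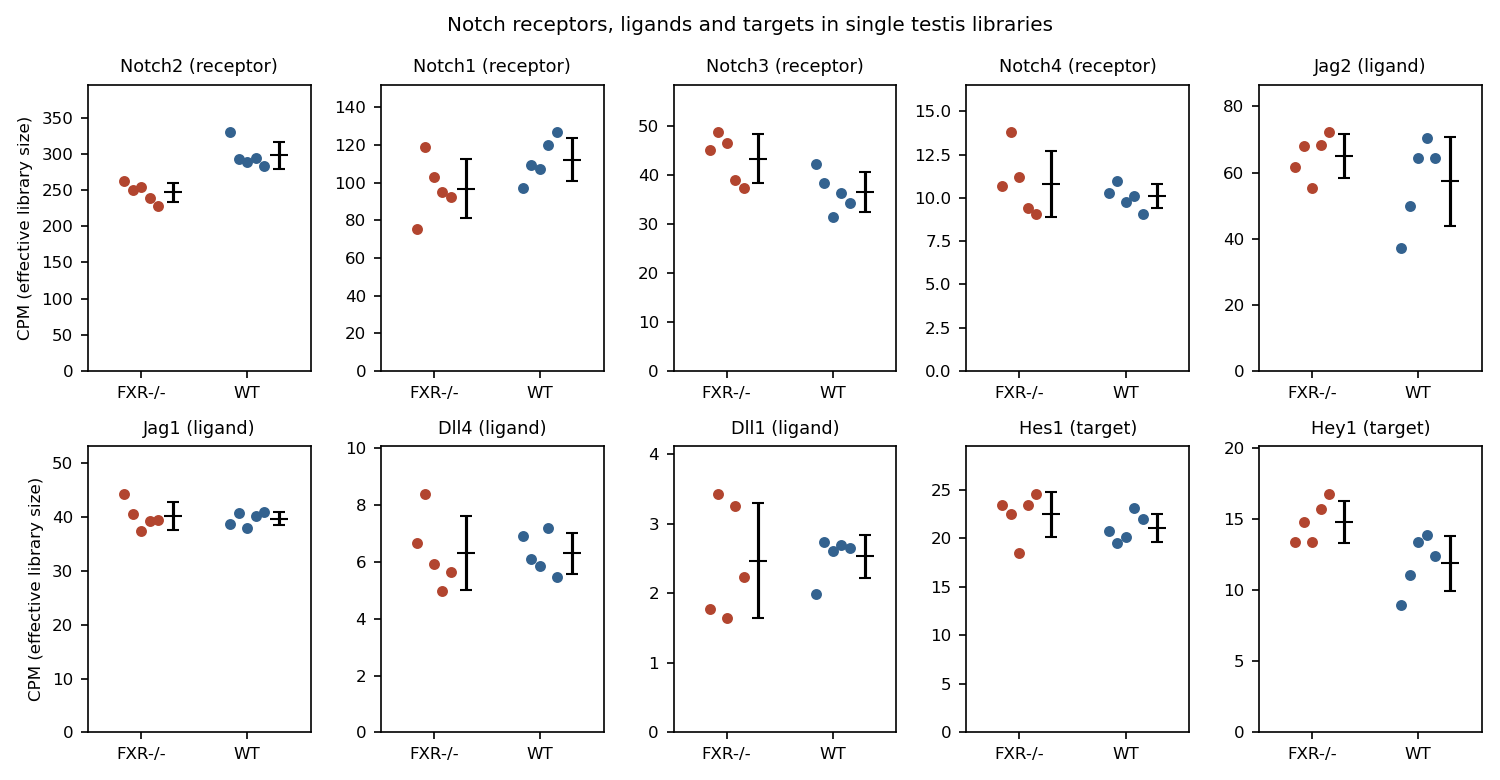
Expression of each of the 10 genes in CPM (y axis, from 0) in FXR-/- libraries (red, left) and WT libraries (blue, right). Points are single mice in the order of their library numbers, and bars beside them give the mean and SD (n = 5 each). The Notch2 points of the genotypes are apart, from 227.9 to 262.3 CPM in FXR-/- and from 283.4 to 329.7 CPM in WT, while the points of the other 9 genes overlap.

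Scaled by the exonic length of each gene, Notch2 was the most abundant of the 10. Its level was 22.9 ± 1.25 CPM per kb in FXR-/- and 27.6 ± 1.70 CPM per kb in WT (SD, n = 5 each). It was followed by Hes1 at 11.0 ± 1.15 CPM per kb in FXR-/- and 10.4 ± 0.70 in WT, and by Jag2 at 9.34 ± 0.955 CPM per kb in FXR-/- and 8.22 ± 1.95 in WT. Jag1, Notch1, Notch3 and Hey1 lay between 4.54 and 6.89 CPM per kb in FXR-/- and between 3.66 and 7.88 CPM per kb in WT. Dll4, Notch4 and Dll1 closed the order, with 1.64, 1.35 and 0.584 CPM per kb in FXR-/- and 1.64, 1.25 and 0.60 CPM per kb in WT. Within each genotype the values of Notch2 lay above those of every other member. Neighbours whose values overlapped in WT were Hes1 and Jag2, Jag2 and Notch1, Notch1 and Jag1, and Notch3 and Hey1. The most abundant and the least abundant member, Notch2 and Dll1, kept these places in both genotypes when the longest transcript replaced the exonic length.

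Notch2 (ENSMUSG00000027878, GRCm38 chromosome 3, 98013527 to 98150361, plus strand) encodes a receptor that is widely expressed in somatic cells. It measured 262.3, 249.9, 254.1, 238.5 and 227.9 CPM in FXR-/- libraries 8 to 12, against 329.7, 292.3, 289.0, 294.0 and 283.4 CPM in WT libraries 3, 4, 5, 6 and 9. All 5 FXR-/- values lay below all 5 WT values, and WT library 3 stood above the rest. The groups were likewise apart in 11.6% of all tested genes. Notch2 had a log2 fold change of -0.27 (SE 0.0516, edgeR adjusted p = 0.00626). Permuting the mice between genotypes gave an exact two-sided p of 0.00794, the smallest that 5 against 5 allow. The call held without any 1 library, with log2 fold changes from -0.30 to -0.23 and adjusted p up to 0.0224 by edgeR. Sertoli markers were lower in the same FXR-/- libraries, in the ranges given above, and their part in the fall of Notch2 was not tested.

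Notch1 (ENSMUSG00000026923, GRCm38 chromosome 2, 26457903 to 26516663, minus strand) encodes the receptor whose activity has been followed in Sertoli cells. It measured 75.3, 118.9, 103.0, 94.8 and 92.5 CPM in FXR-/- libraries 8 to 12, against 97.4, 109.6, 107.3, 119.8 and 126.8 CPM in WT libraries 3, 4, 5, 6 and 9. FXR-/- library 8 was the lowest of all and 3 FXR-/- values lay below the WT range, but the groups overlapped. For Notch1 the log2 fold change was -0.21 (SE 0.106, edgeR adjusted p = 0.206). The permutation test over mice gave an exact two-sided p of 0.111. FXR-/- library 8 was also the lowest in summed Sertoli (2586 CPM), Leydig (309.9 CPM) and macrophage (86.0 CPM) markers. WT library 3, the lowest of WT in Notch1, had a Sertoli sum of 4897 CPM, within the WT range. The part of these markers in the Notch1 values was not tested. Without FXR-/- library 8 the log2 fold change of Notch1 was -0.13 (edgeR adjusted p = 0.347). Without FXR-/- library 9, the highest of its group, it was -0.30 (edgeR adjusted p = 0.0708).

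Notch3 (ENSMUSG00000038146, GRCm38 chromosome 17, 32120820 to 32166852, minus strand) encodes the receptor of vascular smooth muscle and pericytes. It measured 45.0, 48.7, 46.6, 38.9 and 37.3 CPM in FXR-/- libraries 8 to 12, against 42.2, 38.4, 31.5, 36.4 and 34.2 CPM in WT libraries 3, 4, 5, 6 and 9. FXR-/- libraries 8, 9 and 10 lay above every WT library, and libraries 11 and 12 within the WT range. Its log2 fold change of 0.24 (SE 0.0913, edgeR adjusted p = 0.096) passed without WT library 3 (0.30, adjusted p = 0.0489). Unadjusted, the exact two-sided permutation p was 0.0476, with all 10 genes tested in this way. Of the 8 smooth muscle markers, 1 (Rgs5, a pericyte gene) rose and 7 did not pass, which is 12.5% called against 13.9% of all tested genes. Fitted changes were above 0 for 6 of the 8 and below 0 for 2, Cspg4 (-0.14) and Myh11 (-0.08). The summed level of these markers was 1253 to 1531 CPM in FXR-/- and 1158 to 1369 CPM in WT, with 0 of them unread. Their part in the Notch3 values was not tested.

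Notch4 (ENSMUSG00000015468, GRCm38 chromosome 17, 34564268 to 34588503, plus strand) encodes the endothelial receptor and was the scarcest of the 4. It ranged from 9.07 to 13.8 CPM in FXR-/- libraries (median library 8, 10.7 CPM) and from 9.10 to 11.0 CPM in WT libraries. The groups overlapped, and FXR-/- library 9 was the highest, at 13.8 CPM. Notch4 had a log2 fold change of 0.11 (SE 0.111, edgeR adjusted p = 0.555), which was 0.0047 without that library. The same library was the highest in summed endothelial markers, at 276.9 CPM, where FXR-/- libraries ranged from 196.0 CPM upward and WT libraries from 212.2 to 245.2 CPM. Of 9 endothelial markers, 1 (Erg, an endothelial transcription factor) rose, 8 did not pass and 0 were unread. That is 11.1% called, against 13.9% of all tested genes. Fitted changes were above 0 for 7 of the 9 and below 0 for 2, Cdh5 (-0.19) and Kdr (-0.06).

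The share of each receptor in the summed receptor RNA of a library was also taken. Notch3 made up 15.2, 15.3, 15.2, 13.8 and 13.8% of length-scaled receptor RNA in FXR-/- libraries 8 to 12, against 11.9, 11.6, 9.86, 10.9 and 10.4% in WT libraries 3, 4, 5, 6 and 9. All FXR-/- shares of Notch3 lay above all WT shares, and so did those of Notch4, at 3.36 to 4.37% in FXR-/- and 2.78 to 3.32% in WT. Notch2 held 62.9 ± 2.75% in FXR-/- and 66.9 ± 1.91% in WT, and Notch1 18.7 ± 2.51% in FXR-/- and 19.2 ± 2.35% in WT (SD, n = 5 each), with overlap in both. These shares are a description and were not tested. They add up to the whole within each library, so a share can move when only another receptor changes. Length-scaled levels themselves averaged 5.35 CPM per kb in FXR-/- and 4.52 in WT for Notch3, and 1.35 and 1.25 for Notch4. The part of each receptor in the shares was not tested.

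**Figure D2:**
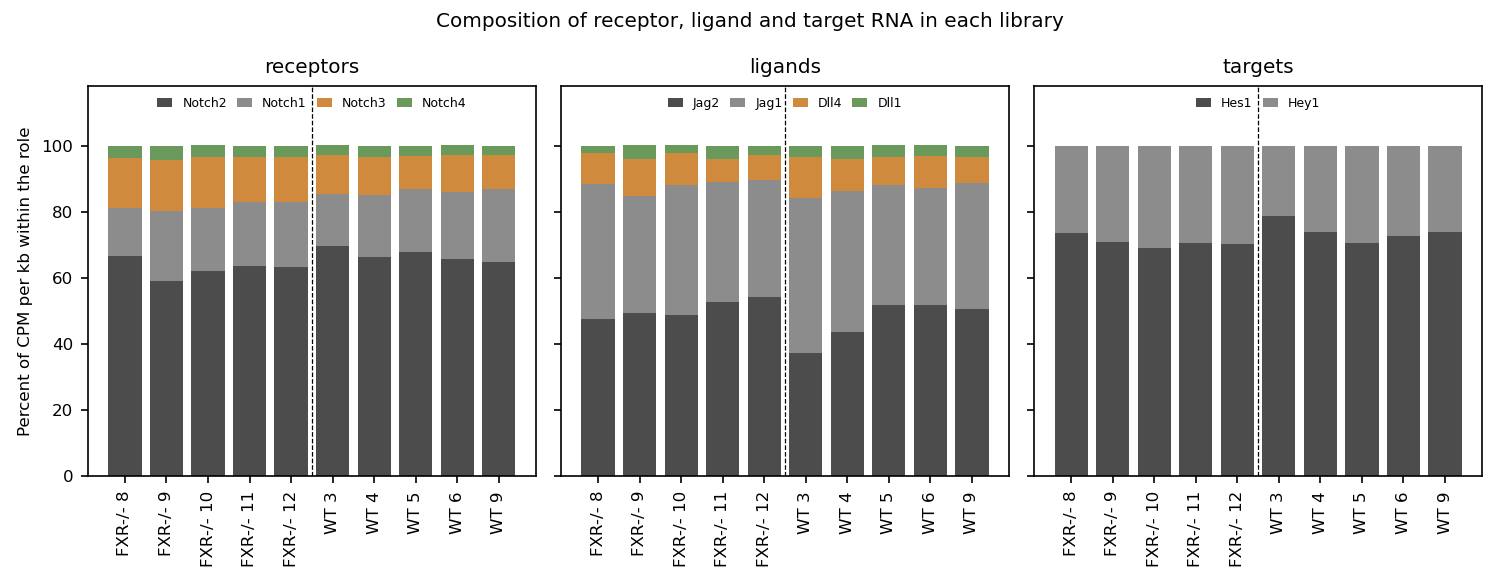
Percent of length-scaled RNA (CPM per kb, y axis) that each receptor, ligand and target gene takes within its role, in each library, with FXR-/- libraries left and WT libraries right of the dashed line. Notch3 takes 13.8 to 15.3% of receptor RNA in FXR-/- libraries and 9.86 to 11.9% in WT libraries, and Jag2 takes its lowest share of ligand RNA in WT library 3 (37.4%).

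None of the 4 ligand genes passed the test, and neither did either target gene. Jag2 (ENSMUSG00000002799), a Jagged ligand, measured 61.6, 67.9, 55.3, 68.3 and 72.2 CPM in FXR-/- libraries 8 to 12, against 37.2, 49.9, 64.4, 70.6 and 64.3 CPM in WT libraries 3, 4, 5, 6 and 9. The groups overlapped, with WT libraries 3 and 4 below all others. Jag2 had a log2 fold change of 0.18 (SE 0.147, edgeR adjusted p = 0.435), and without WT library 3 it was 0.06. The same WT libraries had the lowest summed germ cell markers, at 1287 CPM in library 3 and 1524 CPM in library 4. Germ cell markers summed to 1954, 1987, 1706, 2098 and 2306 CPM in FXR-/- libraries 8 to 12 and to 1816, 2073 and 2001 CPM in WT libraries 5, 6 and 9, and their part in the Jag2 values was not tested.

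Jag1 (ENSMUSG00000027276), the other Jagged ligand, was the steadiest member in WT. It ranged from 37.3 to 44.3 CPM in FXR-/- and from 37.9 to 40.9 CPM in WT, with a coefficient of variation of 6.40% in FXR-/- and 3.24% in WT. Its log2 fold change was 0.02 (SE 0.0507, edgeR adjusted p = 0.852). Dll4 (ENSMUSG00000027314), the endothelial Delta-like ligand, measured 4.97 to 8.40 CPM in FXR-/- and 5.48 to 7.18 CPM in WT, and its sign depended on the setting. Dll1 (ENSMUSG00000014773), another Delta-like ligand, was the scarcest member, read at as few as 60 counts in an FXR-/- library and 66 in a WT library. It measured 1.77, 3.43, 1.65, 3.25 and 2.23 CPM in FXR-/- libraries 8 to 12, against 1.99, 2.73, 2.60, 2.69 and 2.65 CPM in WT libraries 3, 4, 5, 6 and 9. The FXR-/- values fell on both sides of the WT range, 2 above it and 2 below it, with a coefficient of variation of 33.7% in FXR-/- and 12.2% in WT.

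The target genes encode repressors of the same family. Hes1 (ENSMUSG00000022528) measured 23.4, 22.5, 18.5, 23.4 and 24.6 CPM in FXR-/- libraries 8 to 12, against 20.8, 19.5, 20.1, 23.1 and 22.0 CPM in WT libraries 3, 4, 5, 6 and 9. The groups overlapped, with FXR-/- library 10 the lowest of all and 3 FXR-/- libraries above every WT library. The log2 fold change of Hes1 was 0.09 (SE 0.0791, edgeR adjusted p = 0.48). A p that misses the threshold does not show that the genotypes were alike.

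Hey1 (ENSMUSG00000040289, GRCm38 chromosome 3, 8663359 to 8667256, minus strand) had the largest fitted change of the 10. It measured 13.4, 14.8, 13.4, 15.7 and 16.8 CPM in FXR-/- libraries 8 to 12, against 9.00, 11.1, 13.4, 13.9 and 12.4 CPM in WT libraries 3, 4, 5, 6 and 9. FXR-/- libraries 9, 11 and 12 lay above every WT library, and WT library 3 was the lowest. Its log2 fold change was 0.31 (SE 0.115), and edgeR's adjusted p of 0.0909 and DESeq2's adjusted p of 0.0503 did not pass. Unadjusted, the exact two-sided permutation p was 0.0397, again with all 10 genes tested. FXR-/- library 12 was also the highest in summed germ cell markers, at 2306 CPM, and WT library 3 the lowest, at 1287 CPM, and the part of germ cell markers in the Hey1 values was not tested.

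**Figure D3:**
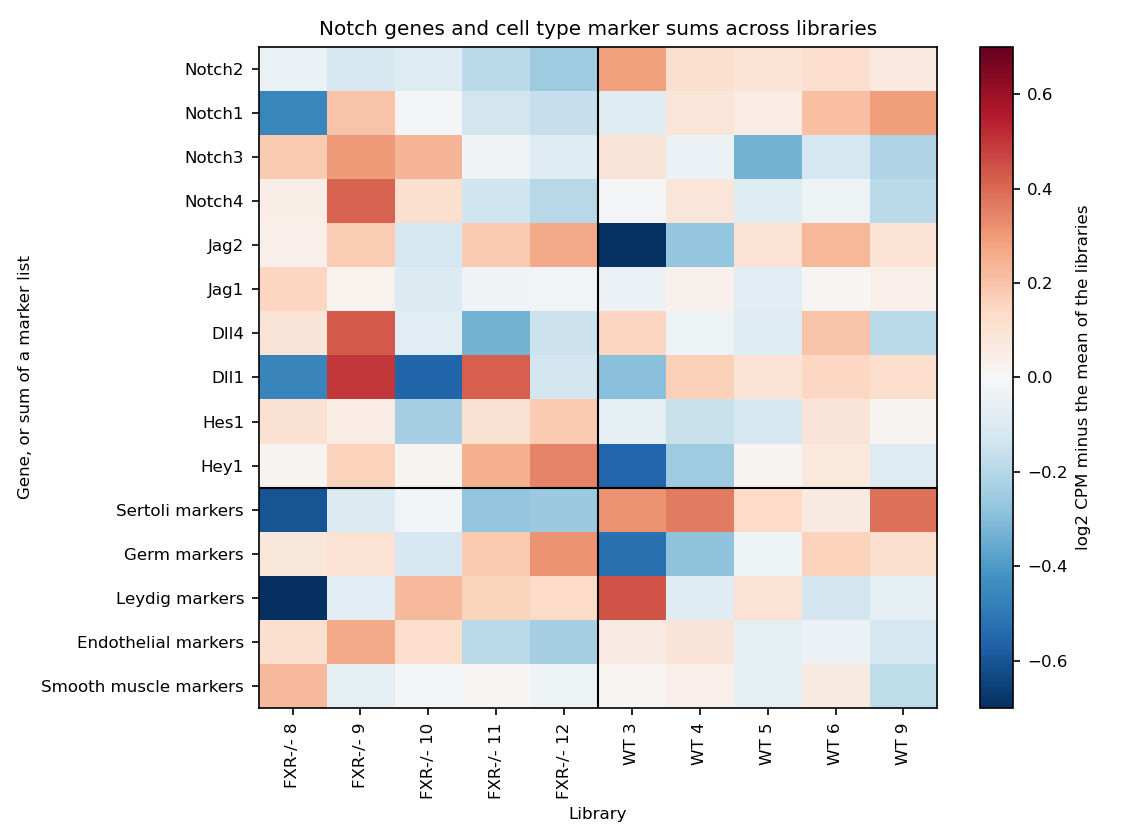
Log2 CPM of each of the 10 genes (rows above the line) and of summed cell type markers (rows below it) after subtracting the mean of the 10 libraries, with FXR-/- libraries left and WT libraries right. Red is above and blue below the mean, and values past the ends of the colour bar take its end colours. Notch2 is above its mean in all 5 WT libraries. Jag2 and Hey1 are lowest in WT library 3, which also has the lowest germ cell marker sum. Notch1 is lowest in FXR-/- library 8, which has the lowest Sertoli and Leydig marker sums.

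The genes whose centred log2 CPM over the 10 libraries differed least from a member's, by root mean square, were picked among 13971 genes of at least 1 CPM for the 3 members with the smallest p. For Notch2, which spread by 0.155 about its own mean, they were Cd248, a marker of stromal cells and pericytes (0.0321), Polr1a, a subunit of RNA polymerase I (0.0388), and Lrp1, an endocytic receptor (0.042). Cd248 averaged 47.5 ± 2.89 CPM in FXR-/- and 56.9 ± 4.07 CPM in WT (SD, n = 5 each). For Hey1, which spread by 0.244, they were Scml2 (0.0428), a Polycomb group gene of the male germ line, Taf7l (0.0464), a germ cell relative of a general transcription factor subunit, and Tktl1 (0.0517), a transketolase-like gene, all on the X chromosome. Taf7l averaged 273.3 ± 31.6 CPM in FXR-/- and 219.4 ± 36.6 CPM in WT (SD, n = 5 each). For Notch3, which spread by 0.191, they were Lyn, a tyrosine kinase of blood cells (0.0551), Gbp2, an interferon-induced GTPase (0.069), and AI413582 (0.0752).

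Around the 10 genes, 75 further genes of the pathway were listed by role, and 73 had enough counts to be tested. Of these, 4 rose, 10 fell and 59 did not pass, which is 19.2% called against 13.9% of all tested genes. Their median fitted log2 fold change was -0.04, against 0.01 for all tested genes. DESeq2 called 23 of the 73, among them all 14, and it also called more of all genes, 19.2% of the 18197 to which it gave an adjusted p. Groups were apart in 9 of the 73, against 11.6% of all tested genes. Summed Sertoli markers were lower, and summed duct epithelium markers higher, in all FXR-/- libraries than in any WT library. A gene whose groups do not overlap therefore splits the libraries as these sums do, whatever its source. Genes called with overlap, such as Maml2 and Dtx4, do so only in part. The part of these markers in the pathway calls was not tested.

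Receptor proteolysis held the most calls of the 9 pathway lists, a rank taken from the calls themselves and not tested. Of its 10 genes, 4 fell and 6 did not pass, where 13.9% of all tested genes were called and 7.71% fell. The values of 3 of those that fell are given here. Ncstn, a subunit of the gamma-secretase that frees the intracellular part of the receptor, averaged 135.5 ± 12.7 CPM in FXR-/- and 159.1 ± 6.81 CPM in WT. Furin, which cleaves the receptor on its way to the surface, averaged 136.4 ± 9.52 CPM in FXR-/- and 159.0 ± 8.16 CPM in WT. Adam17, a metalloprotease that can cut the receptor outside the cell, averaged 121.5 ± 7.69 CPM in FXR-/- and 136.2 ± 4.43 CPM in WT (SD, n = 5 each). EdgeR's adjusted p was 0.0274 for Ncstn, 0.0202 for Furin and 0.0387 for Adam17. All of these enzymes also cut many other proteins. Furin lost its call without FXR-/- library 11 or 12 (adjusted p up to 0.053 by edgeR), and Ncstn without either of these or without WT library 4, 5 or 9 (up to 0.0693). Adam17 kept its call only without FXR-/- library 10 or WT library 9, with adjusted p up to 0.0924 by edgeR in the other 8 fits. It also lost its call with upper-quartile scaling (0.0514), library totals alone (0.0781) and no low-count filter (0.0671). On the opposite strand, Ncstn overlaps Copa, which averaged 461.9 CPM and so more than Ncstn itself. Adam17 overlaps Iah1 (45.8 CPM) in the same way, and reads could not be told apart by strand.

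In receptor glycosylation, 2 of 8 genes fell and 6 did not pass. Gxylt1 and Xxylt1, which lengthen the O-glucose sugars on Notch repeats with xylose, both had all FXR-/- values below all WT values. Gxylt1 averaged 80.0 ± 3.92 CPM in FXR-/- and 94.6 ± 2.92 CPM in WT (SD, n = 5 each; log2 fold change -0.24, SE 0.0424, edgeR adjusted p = 0.00441). Xxylt1 averaged 25.1 ± 1.87 CPM in FXR-/- and 29.9 ± 0.901 CPM in WT (SD, n = 5 each; edgeR adjusted p = 0.0142). Among 11 genes of receptor turnover and inhibition, 2 of the Deltex ubiquitin ligase genes fell and 9 did not pass. Dtx1 measured 88.9, 110.5, 112.7, 104.5 and 94.3 CPM in FXR-/- libraries 8 to 12, against 140.1, 141.0, 127.6, 130.7 and 150.5 CPM in WT libraries 3, 4, 5, 6 and 9. The Dtx1 groups did not overlap, with a log2 fold change of -0.43 (SE 0.0701, edgeR adjusted p = 0.00296). Dtx4 averaged 139.1 ± 17.1 CPM in FXR-/- and 179.2 ± 20.1 CPM in WT (SD, n = 5 each; edgeR adjusted p = 0.0246), with overlap. Its call was lost without FXR-/- library 9 or 11 or WT library 4 or 6, with adjusted p up to 0.062 by edgeR.

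Of 10 genes of the nuclear complex, 1 rose, 1 fell and 8 did not pass, and both that moved encode Mastermind coactivators. Maml3 averaged 20.1 ± 1.65 CPM in FXR-/- and 26.4 ± 3.10 CPM in WT, and Maml2 averaged 9.99 ± 1.10 CPM in FXR-/- and 7.67 ± 0.92 CPM in WT (SD, n = 5 each). Maml3 had a log2 fold change of -0.39 (SE 0.0849, edgeR adjusted p = 0.0117) and Maml2 one of 0.38 (SE 0.102, edgeR adjusted p = 0.0304). Maml3 kept its call whichever library was left out. Maml2 kept its own only without FXR-/- library 11 or 12 or WT library 3, with adjusted p up to 0.069 by edgeR in the other 7 fits. Rbpj, the DNA-binding partner of all Notch receptors, is given outside the naming rule. It averaged 115.6 ± 4.20 CPM in FXR-/- and 112.5 ± 5.02 CPM in WT (SD, n = 5 each; edgeR adjusted p = 0.575).

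Of the 4 pathway genes that rose, 3 were atypical ligands or served ligand ubiquitination. Of 9 atypical ligands and ligand-like genes, 2 rose and 7 did not pass. Cntn6, a neural adhesion protein, measured 3.95, 3.29, 2.05, 2.50 and 1.67 CPM in FXR-/- libraries 8 to 12, against 1.11, 1.32, 1.35, 1.26 and 0.994 CPM in WT libraries 3, 4, 5, 6 and 9. All FXR-/- values of Cntn6 lay above all WT values, and its log2 fold change of 1.15 (SE 0.225, edgeR adjusted p = 0.00728) was the largest of the pathway. Mfap5, a microfibril protein, averaged 17.4 ± 0.618 CPM in FXR-/- and 13.5 ± 0.992 CPM in WT (SD, n = 5 each; edgeR adjusted p = 0.00399), again without overlap. Of 4 genes of ligand ubiquitination, Neurl1a rose and 3 did not pass. Neurl1a averaged 6.32 ± 1.19 CPM in FXR-/- and 4.52 ± 0.24 CPM in WT (SD, n = 5 each; edgeR adjusted p = 0.0262). Its call was lost without FXR-/- library 9 or 11 or WT library 4, 5, 6 or 9, with adjusted p up to 0.065 by edgeR.

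None of 13 corepressor genes passed by edgeR. Ncor1 averaged 281.1 ± 6.58 CPM in FXR-/- and 300.3 ± 9.10 CPM in WT (SD, n = 5 each), with an adjusted p of 0.0881 by edgeR and 0.02 by DESeq2. DESeq2 also called Ctbp1 and Tle4 of this list. Ncor1 overlaps Ttc19 (64.5 CPM) on the opposite strand. Of the other HES and HEY family genes, 6 of 8 had enough counts to be tested and 0 passed. Heyl averaged 45.4 ± 8.68 CPM in FXR-/- and 48.9 ± 6.85 CPM in WT, and Hes6 averaged 17.8 ± 1.57 CPM in FXR-/- and 17.2 ± 0.88 CPM in WT (SD, n = 5 each).

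Gdnf and Cyp26b1, which HES1 and HEY1 are known to repress in mouse Sertoli cells, encode a growth factor for spermatogonial stem cells and an enzyme that breaks down retinoic acid. Cyp26b1 fell, measuring 246.0, 269.6, 275.7, 241.9 and 231.8 CPM in FXR-/- libraries 8 to 12, against 319.1, 323.5, 297.6, 311.0 and 302.9 CPM in WT libraries 3, 4, 5, 6 and 9. Its groups did not overlap (log2 fold change -0.30, SE 0.0516, edgeR adjusted p = 0.00418). Gdnf averaged 20.9 ± 4.51 CPM in FXR-/- and 27.4 ± 7.90 CPM in WT (SD, n = 5 each), with overlap and an edgeR adjusted p of 0.188. Both are expressed in somatic cells, and the summed Sertoli markers were lower in all FXR-/- libraries than in any WT library, while the part of these markers in the 2 genes was not tested.

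**Figure D4:**
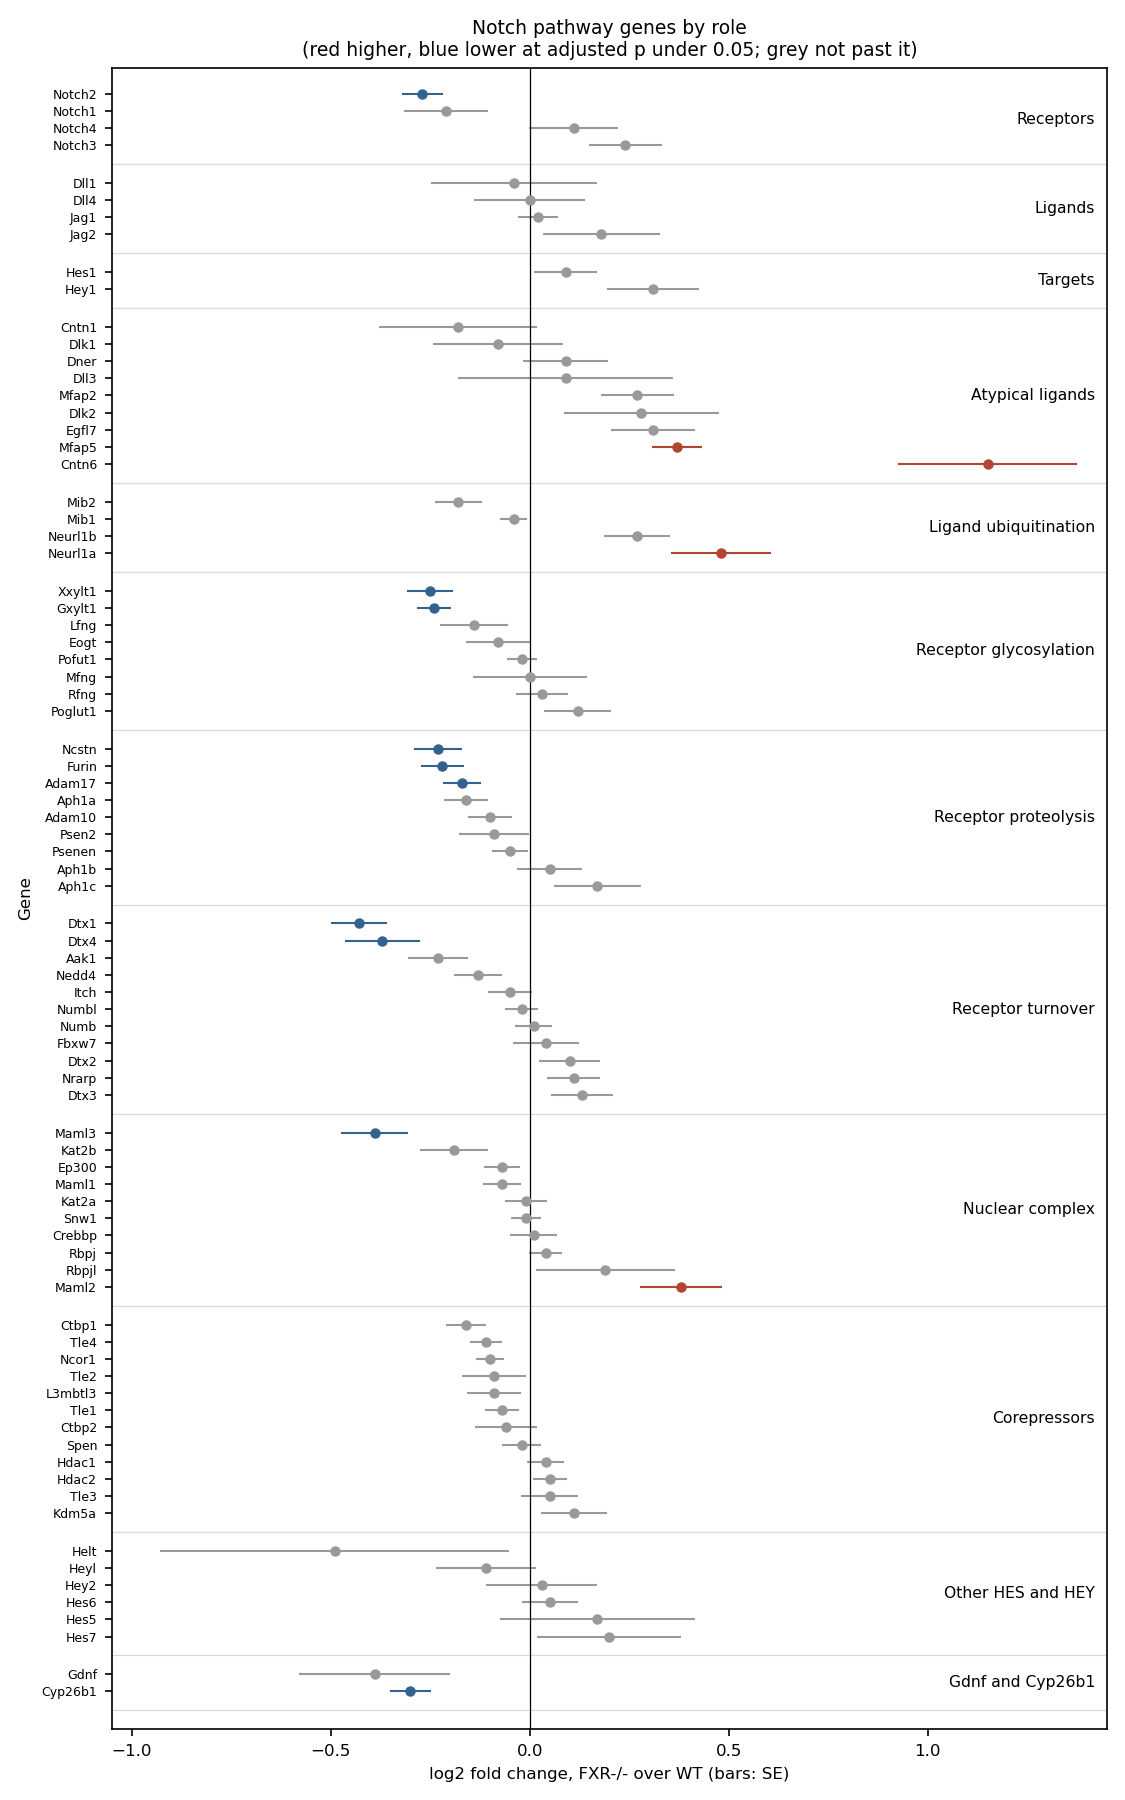
Log2 fold change of the tested Notch pathway genes (x axis, FXR-/- over WT, bars give the SE), grouped by role and sorted within it. Genes past an adjusted p of 0.05 by edgeR are red where higher and blue where lower in FXR-/- testes, and grey otherwise. The 10 receptors, ligands and targets at the top hold 1 blue point, Notch2, and receptor proteolysis shows 3 blue points. Of the 73 further pathway genes tested, 2 are not drawn.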

How the data were processed

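Testes of 5 FXR-/- and 5 WT mice, named by the labels' genotype and titles, were compared. Per the submitters' processing notes, FastQC 0.10.1, CASAVA, Bowtie, TopHat2 2.0.10, Bowtie2 2.1.0 and build mm10 were used. For the counting step, no sources used here give the tool, annotation or strand setting. The whole-number counts per gene in the deposited table were used as they stood. The other deposited values, normalized by the authors and per kb, had lost their decimal marks and were not used here. Identifiers of 30212 of 30719 genes matched GENCODE M21 (GRCm38), which gave positions and exonic lengths.

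Counts were filtered (filterByExpr), scaled by TMM and tested with edgeR 4.0.16 in R 4.3.3 (quasi-likelihood test with Benjamini-Hochberg adjustment over 18559 genes). CPM uses effective library sizes. Permutation tests used log2 CPM with a prior count of 2. Alternatives used DESeq2 1.42.0, limma 3.58.1, other scalings and filters, and left out libraries. The edgeR step was tested on simulated counts, and the permutation step on a small set of made-up values with a known answer. The precision of a value is limited by the 5 mice per genotype.

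The members and lists were chosen with earlier results of these data known. Named pathway genes were, per list, up to 4 called genes with the smallest p, or else the 2 most abundant. Rbpj, Gdnf and the genes in the closing observations were added outside this rule. Of the named pathway genes, 2 are counted but not reported here by name or drawn.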

Additional observations from a re-analysis of the deposited data

Results flagged for a closer look

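In 52 groups of 5 libraries (the 10 genes and 16 named pathway genes in each genotype), 2 values stood apart from the other 4, where chance flags about 1 in 20 groups. Notch2 was highest in WT library 3, at 329.7 CPM, with the next WT value at 294.0 CPM. The fall of Notch2 held without that library. Dll1 was lowest in WT library 3, at 1.99 CPM, with the next WT value at 2.60 CPM.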

How the results depend on the processing

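Notch2 was called by edgeR in every alternative (RLE, upper-quartile and library-total scaling, no low-count filter, at least 1 CPM in 5 libraries), by DESeq2 and by limma-voom, and it was the only member called in each of these. Leaving out 1 library gave 1 to 2 called members, the second being Notch3 without WT library 3, 9 to 15 called pathway genes, 1427 to 2867 called genes in all, and 1 (without WT library 4) to 3 members with an exact permutation p under 0.05, against 3 in all libraries. The fewest pathway calls (9) and genes (1427) came without FXR-/- library 11, and 1601 and 1635 genes without WT library 4 and FXR-/- library 12. DESeq2 called 23 pathway genes against 14 by edgeR, and 3485 against 2576 of all genes, and the cause was not tested. Adam17 lost its call under 3 of the scalings and filters, and the other 13 pathway calls held under each. Signs turned for 3 uncalled members. Dll4, at 0.0004 on the log2 scale, was -0.0027 with RLE scaling, -0.0029 by DESeq2, -0.02 by limma-voom and -0.12 to 0.08 without 1 library. Jag1 was -0.02 to 0.04 and Dll1 -0.19 to 0.08 without 1 library. Without FXR-/- library 8 and WT library 3, an alternative chosen after seeing the data, Jag1 was -0.03, and 1 member, 12 pathway genes and 2434 genes were called. With the longest transcript as length, Notch2 made up 57.7% of receptor RNA in FXR-/- and 61.3% in WT. No paired analysis was possible because the genotypes share 1 library number. Dll1, at 60 counts in its lowest library, is the member that depth limits most.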

Other observations

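Genes near Notch2 include some of large change, as do those near Notch3 and Notch4. Within 5 Mb of its start, 149 other genes were tested and 25 were called (16.8%), 9 as higher and 16 as lower, with a median fitted log2 fold change of 0.00. Of these calls, 7 were past 1 on the log2 scale, 5 as higher and 2 as lower, all at -4.57 to -2.89 Mb from the start of Notch2. Named after their values were seen, they run from Gm15264 (4.81) and BC021767 (3.28) to Celf3 (-1.09) and Riiad1 (-1.16). The mice are of mixed 129sv and C57Bl strains, and which strain each carries at this region is not given in the labels. On chromosome 3 as a whole 19.6% of tested genes were called, and on chromosome 17, which holds Notch3, Notch4 and Dll1, 20.3%, against 13.9% of all tested genes. Within 5 Mb of Notch3, 19.9% of the other tested genes were called, and within 5 Mb of Notch4, 18.8%. These windows overlap, and in each of them 8 calls were past 1 on the log2 scale, 6 as higher and 2 as lower. Within 5 Mb of Hey1, also on chromosome 3, 3 of 20 other genes were called. The shares called around the remaining members were 25% for Dll1, 17.1% for Hes1, 15.3% for Jag2, 10.2% for Dll4, 7.73% for Notch1 and 6.25% for Jag1. Around these and Hey1, 0 to 3 calls were past 1 on the log2 scale. The share of all tested genes called past 1 was not taken, so these counts do not show that any window is unusual.

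Dlk1, a Delta-like protein of immature interstitial cells, and Heyl were high in the same FXR-/- library and the same WT library, and were looked at after their values were seen. Dlk1 measured 327.7 CPM in FXR-/- library 8 and 183.1 to 209.9 CPM in the other FXR-/- libraries, against 287.4 CPM in WT library 3 and 184.6 to 252.6 CPM in the other WT libraries. Heyl measured 59.1 CPM in FXR-/- library 8 and 38.0 to 49.0 CPM in the other FXR-/- libraries, against 60.3 CPM in WT library 3 and 41.8 to 48.6 CPM in the other WT libraries. Neither passed between the genotypes, with edgeR adjusted p of 0.795 for Dlk1 and 0.609 for Heyl.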
